A study of Rattus norvegicus with 22 samples.

Results

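The comparison described here sets irradiated 9L tumor against irradiated contralateral brain of the same rats, 6 h after synchrotron microbeam radiation therapy (MRT). Its members were the 6 tumor arrays and the 6 contralateral brain arrays whose labels name MRT, which is 12 of the 22 arrays of the series, and the tumor and brain of each rat (rats 6 to 11) were paired. All animals were male Fischer rats, 8 weeks old on arrival, with 9L cells injected into the right caudate nucleus. At day 10 after the injection the 6 rats received microbeams 50 µm wide and 200 µm apart, with a peak dose of 400 Gy in the beam paths and a valley dose of 18 Gy between them, both given for the tumor position. The remaining 10 arrays are tumor and brain of 5 rats (rats 1 to 5) with the same implant and no irradiation, and they serve as the reference for the size of each difference.

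The model limits what the 2 tissues can be compared for. 9L is a single rat glioma cell line, grown in culture before it was injected, and the host had a working immune system. Tumor and contralateral tissue were punched out of frozen coronal sections, so a tumor sample holds 9L cells together with host cells, and the brain sample holds whatever structures lay under the punch. The beam entered on the right, and the dose on the left side is not given in the sources used here. In such bulk samples, fewer cells of a type and less RNA per cell cannot be told apart.

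Cycling cells copy their DNA and then segregate it, and the genes for these steps are switched on in phases, so that tissue with many dividing cells carries their transcripts while mature brain, made largely of cells that no longer divide, carries few. Neurons in turn express large sets of genes for transmitter release and reception that glioma cells mostly lack. Ionizing radiation induces the p53 pathway and, in brain, inflammatory mediators from glia and endothelium, while interferon-responsive genes and antigen presentation genes can be induced in most cell types.

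Promoter windows are shown for 5 genes on which the results below turn. Ccnb2 and Cdc20 drive mitosis and were higher in tumor. Cxcl10 is a chemokine that was brighter in brain than in tumor, Gbp2 is an interferon-induced GTPase whose difference was near 0, and Inhbe is an inhibin subunit gene whose excess in tumor was larger after MRT than without it. Each window runs from 250 bases before to 50 bases after the gene's start in the RefSeq annotation of rat build GRCr8, and is printed 5′ to 3′ along the gene. Capitals mark, in the first pair, the CCAAT box (CCAAT) and the cell cycle genes homology region or CHR (TTTGAA). In Cxcl10 and Gbp2 they mark the interferon-stimulated response element (GAAA, any 2 bases, GAAA) and an NF-kB motif (GGGA, any 2 bases, TTCC), and in Inhbe the composite motif bound by ATF4 with C/EBP proteins (TGATGCAA), each on either strand.
Ccnb2 (chr8:79981609-79981908, - strand): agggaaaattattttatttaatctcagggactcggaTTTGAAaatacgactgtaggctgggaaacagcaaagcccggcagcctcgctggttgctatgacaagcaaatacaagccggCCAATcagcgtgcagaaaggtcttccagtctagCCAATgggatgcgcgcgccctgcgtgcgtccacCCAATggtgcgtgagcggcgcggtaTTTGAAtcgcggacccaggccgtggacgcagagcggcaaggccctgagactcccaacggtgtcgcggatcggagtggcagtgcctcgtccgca
Cdc20 (chr5:137255750-137256049, - strand): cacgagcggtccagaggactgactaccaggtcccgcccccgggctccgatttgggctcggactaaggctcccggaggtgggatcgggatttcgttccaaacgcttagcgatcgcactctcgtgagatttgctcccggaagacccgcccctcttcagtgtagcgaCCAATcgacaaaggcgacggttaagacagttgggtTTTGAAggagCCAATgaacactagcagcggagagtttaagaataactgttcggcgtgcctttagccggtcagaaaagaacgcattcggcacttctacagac
Cxcl10 (chr14:15988816-15989115, + strand): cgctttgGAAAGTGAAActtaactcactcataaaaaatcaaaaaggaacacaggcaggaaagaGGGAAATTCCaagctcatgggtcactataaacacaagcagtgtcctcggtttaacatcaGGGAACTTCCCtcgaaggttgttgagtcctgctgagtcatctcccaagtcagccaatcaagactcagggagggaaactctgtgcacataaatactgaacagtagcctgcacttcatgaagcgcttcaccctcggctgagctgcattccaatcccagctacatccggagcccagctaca
Gbp2 (chr2:234005477-234005776, + strand): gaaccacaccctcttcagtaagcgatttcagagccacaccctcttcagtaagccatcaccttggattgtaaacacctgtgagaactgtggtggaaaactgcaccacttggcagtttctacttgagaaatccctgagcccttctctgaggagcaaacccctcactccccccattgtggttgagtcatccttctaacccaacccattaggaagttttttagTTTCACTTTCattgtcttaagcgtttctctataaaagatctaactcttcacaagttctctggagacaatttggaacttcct
Inhbe (chr7:65064470-65064769, - strand): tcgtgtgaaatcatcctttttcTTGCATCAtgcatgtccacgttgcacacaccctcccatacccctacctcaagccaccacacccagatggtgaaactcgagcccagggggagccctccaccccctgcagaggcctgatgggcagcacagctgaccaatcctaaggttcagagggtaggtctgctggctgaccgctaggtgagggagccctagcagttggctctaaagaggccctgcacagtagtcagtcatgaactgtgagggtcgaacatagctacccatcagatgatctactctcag
In Cxcl10 2 of the NF-kB matches overlap each other, and the Gbp2 window holds no NF-kB match. These 5 windows were picked after the motif search because they hold the letters searched for, and the windows of whole gene lists were counted the same way. A window was found for 10355 of the 13699 measured genes. Of the 33 windows of mitosis genes 72.7% held a CCAAT box, against 37.6% of all windows, and 66.7% (22 of 33) held a CHR, against 1247 of the 10355. Of the 31 windows of DNA replication genes 58.1% held a CCAAT box and 9.68% a CHR. The interferon motif stood in 65.2% of 23 windows of interferon-stimulated genes and in 2.96% of all windows. The NF-kB motif stood in 21.7% of 23 chemokine windows and in 1.44% of all, and the ATF4 composite in 34.3% of 35 windows of ATF4-responsive genes and in 0.657% of all. These are matches of letters, given as a description.

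Signals were measured with Affymetrix GeneChip rat expression arrays and are given on the log2 scale, where a difference of 1 is a 2-fold difference. A probeset was called higher or lower in tumor when the paired limma test gave an adjusted p under 0.05 over all 31042 probesets and the mean difference was at least 1. The difference is always tumor minus brain. Probesets called higher numbered 2575 (8.30%) and probesets called lower 2482 (8.00%), and of these 2557 and 2449 lay on the same side in all 6 rats. Without the limit on fold, 18182 probesets (58.6%) differed. With the brightest probeset standing for each gene, 1551 genes (11.3%) were higher and 1165 (8.50%) lower. Counts of called genes in the lists below are to be read beside these shares, and some lists lie near them. Limma's treat test, which asks for a difference beyond 2-fold itself, called 1363 probesets higher and 310 lower.

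The counts were alike in the 2 directions, and the sizes were not. A difference of at least 2 was seen for 784 probesets higher in tumor and 38 lower, a difference of at least 3 for 292 and 1, and a difference of at least 4 for 115 and 0. The median size was 1.54 among those higher and -1.23 among those lower. At the other end, 7474 of 22637 probesets with both means at or above a signal of 58 (33.0%) had a 95% interval of the difference wholly between -0.5 and 0.5. The signal of 58 (5.86 on the log2 scale) is the 25th percentile of all arrays, below which little separates a dim gene from background.

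**Figure D1:**
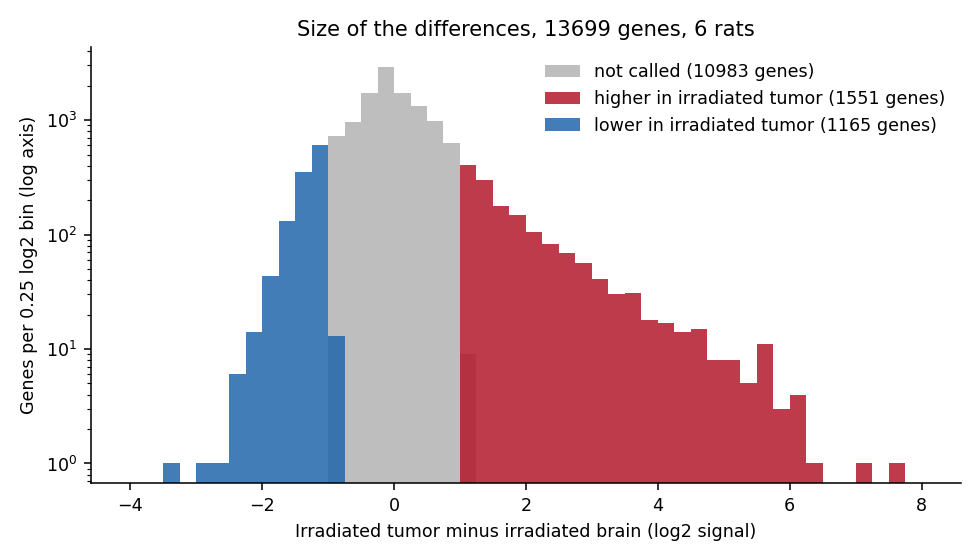
Number of genes (log axis) by the mean difference between irradiated tumor and irradiated brain of 6 rats on the log2 scale, 1 probeset for each of 13699 genes. The 1551 genes called higher in tumor (red) reach 7.64, while the 1165 called lower (blue) end at -3.41.

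Most differences were also present without irradiation. Of the probesets called higher in tumor after MRT, 2332 (90.6%) were called higher in the untreated rats too, and of those called lower 2143 (86.3%). A single probeset was called in opposite directions. Over all probesets the differences of irradiated and untreated rats had r = 0.957 (across probesets, which are not independent replicates). The difference itself changed between the 6 MRT rats and the 5 untreated rats for 205 probesets (0.660%), 25 upward and 180 downward, with 1791 at an unadjusted p under 0.05.

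Markers of the 2 tissues fitted their labels. Synaptic genes were bright in brain, and of 39 mitosis genes 12 lay below the signal of 58 in brain and 0 in tumor. The tumor arrays still held brain transcripts, with a summed signal of 71663 to 105001 over the 21 synaptic genes against 134582 to 149077 in brain, and the part of these in the other results was not tested. Rat 7 stood apart in brain. Its brain had a log2 signal of 6.69 for S100a9, a calcium-binding protein of neutrophils and monocytes, against 10.63 to 11.48 in the other 5 brains, and of 9.85 for Timp1 against 11.65 to 12.19. Where leaving out rat 7 cost a named gene its call, the value without rat 7 is given, as for some other results that it moved. The labelling controls added before amplification fell off more steeply toward their 5′ ends in the tumors of rats 7 and 8 (log2 gap -2.57 and -2.63) than in their brains (-1.72 and -1.81). The gap differed by at most 0.10 between the tissues of the other 4 MRT rats. In every untreated rat it was steeper in tumor (-2.92 to -1.15) than in brain (-1.69 to -0.81). With a grouping by these controls as a covariate, the difference changed between MRT and untreated rats for 225 probesets, beside 205 without it.

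Genes of cell division made up the tallest block of the tumor. Of 39 mitosis genes 37 were higher in tumor and 0 lower, with a median difference of 3.34 (range over the rats 2.55 to 3.66), beside -0.06 over all genes. Mki67, the gene of the proliferation antigen Ki-67, gave 10.25, 11.14 and 11.74 in tumor (lowest, median and highest rat) and 4.64, 5.02 and 5.21 in brain. Tumor and brain did not come near each other, and the difference was 6.10 ± 0.22 (SE, adjusted p = 5.1e-08). Because brain was near background, reading every signal below 58 as 58 shortened the difference to 5.23.

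Ccna2, the cyclin of S phase and mitotic entry, lay between 9.80 and 10.67 in tumor and between 3.91 and 4.52 in brain. Its difference of 6.06 ± 0.09 (adjusted p = 6.1e-10) was read against brain signals below 58, and with these read as 58 it was 4.50. Cdk1, the kinase that triggers mitosis, was higher by 5.59, Ect2, needed for the cleavage furrow, by 5.85, and Bub1, of the spindle checkpoint, by 4.76. Kif20a, a kinesin of late mitosis, and Anln, a furrow protein, were the 2 not called by their brightest probesets, at -0.05 and 0.97. A second, dimmer probeset of Kif20a was called higher at 3.85.

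The mitotic excess was smaller after MRT than without it for 6 of the 39 genes by the test of the change. Cks2, a Cdk-binding protein, ranged from 10.51 to 11.64 in tumor and from 7.43 to 8.32 in brain, a difference of 3.42 ± 0.16, where untreated rats had 6.01, and the change was -2.58 ± 0.31 (adjusted p = 0.0015). Cdc20, the activator that starts anaphase, was at 8.58, 9.54 and 10.46 in tumor and at 6.48, 6.94 and 7.33 in brain. Its difference was 2.51 against 4.56 in untreated rats (change -2.05 ± 0.36, adjusted p = 0.018). The other 4 were Plk1 (1.12 against 2.32), Ccnb1 (2.16 against 3.40), Aurka (1.86 against 3.14) and Pimreg (3.51 against 5.43). Ccnb2 had 4.14 against 5.37, and its change did not pass the test (adjusted p = 0.27). For Cdc20 the brain mean was 6.92 in untreated rats, and the tumor mean there was 11.48.

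DNA replication genes had similar median differences with and without irradiation. Of 35 genes 34 were higher and 0 lower, with a median of 2.34 beside 2.36 in untreated rats, and no gene of the list passed the test of the change. Rrm2, a subunit of the enzyme that makes deoxynucleotides, ranged from 12.54 to 13.31 in tumor and from 7.19 to 7.39 in brain. That is a 51.7-fold difference (5.69 ± 0.13, adjusted p = 5.1e-09). Top2a, which untangles DNA, was higher by 5.60, Mcm6, a part of the replicative helicase, by 4.63, and Cdt1, which loads that helicase, by 4.43. Pclaf, a partner of the sliding clamp PCNA, was higher by 6.19.

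DNA repair genes followed at a lower height, with 16 of 26 higher, 0 lower and a median of 1.10. Chek1, a checkpoint kinase, had 8.20, 8.91 and 9.47 in tumor and 5.61, 5.96 and 6.21 in brain, with no overlap (2.89 ± 0.14, adjusted p = 2.2e-07). Exo1, a nuclease that trims broken ends, was higher by 3.36 (1.79 with low signals read as 58), and Fancd2, of interstrand crosslink repair, by 2.57. Of the end-joining genes on the list, Xrcc6 (1.06) and Prkdc (1.04) were higher, and Xrcc5 (0.43) and Xrcc4 (0.04) were not called.

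Among the cyclins and cell cycle inhibitors, 12 of 19 were higher and 2 lower. Cdkn2a, which encodes the inhibitor p16 and the p53 activator ARF, was at 10.40 to 12.67 in tumor and 4.86 to 5.17 in brain (6.45 ± 0.27, adjusted p = 1e-07, and 5.59 with low signals read as 58). Ccnd1, the cyclin of G1, was higher by 4.03 and its kinase Cdk4 by 3.24. Cdkn1c, the inhibitor p57, was lower by 1.47 on the log2 scale, from 9.26 to 10.88 in brain to 7.58 to 8.94 in tumor (adjusted p = 6.3e-05). A probeset with an old melanoma antigen family annotation (MGC114427) was at 11.34 to 12.39 in tumor and 4.17 to 4.52 in brain. Its measured difference of 7.64 was above that of Mmp3, the metalloprotease described below, and its difference of 6.11 with low signals read as 58 was under it.

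Matrix and mesenchymal genes formed the other tall block. Of 32 collagen and matrix genes 27 were higher and 1 lower (median 3.09), and of 25 mesenchymal genes 24 were higher and 0 lower (median 3.07). In untreated rats these medians were 3.27 and 3.53. The change passed the test for 0 of the matrix genes and for 6 of the mesenchymal genes, all downward. Col3a1, the collagen of loose connective tissue, ranged from 13.83 to 14.39 in tumor and from 7.28 to 9.89 in brain, where rat 7 gave the 9.89. Its difference was 5.89 ± 0.23 (adjusted p = 7.5e-08). Tnc (tenascin C) was higher by 5.61, Col18a1 by 5.55, the lysyl oxidase Loxl2 by 5.14, and Pcolce, which aids collagen processing, by 5.63.

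The exception was decorin (Dcn), a proteoglycan that binds collagen, at 6.60, 8.02 and 8.55 in tumor and 8.59, 8.88 and 9.08 in brain. The tissues did not overlap, and the difference was -1.15 ± 0.26 (adjusted p = 0.0038). It was -0.94 without rat 6 and -0.95 without rat 7, both under the 2-fold limit, and -0.54 in rats 9, 10 and 11 alone (adjusted p = 0.056). Twist1, a transcription factor of mesenchymal cells, ranged from 10.86 to 12.47 in tumor and from 5.32 to 6.48 in brain (5.99 ± 0.16, adjusted p = 8.4e-09). Vimentin (Vim) was higher by 3.07 and galectin 1 (Lgals1) by 5.05.

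Of 32 proteases and inhibitors 16 were higher and 0 lower, with a median of 0.97. Mmp3 (stromelysin 1), which cuts matrix proteins, stood at 12.18, 12.81 and 13.23 in tumor and at 4.64, 5.80 and 6.25 in brain. The difference was 7.05 ± 0.14 (adjusted p = 3.4e-09), or 6.80 with low signals read as 58, since part of the brain values lay below that signal. Mmp13 was higher by 5.54, Mmp2 by 3.89 and the membrane protease Mmp14 by 3.07. Timp3 and Timp4, inhibitors of these enzymes, had differences of -0.63 and -0.82 and were not called.

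Neuronal genes made the lower side, and by modest amounts. Of 21 synaptic vesicle genes 12 were lower and 0 higher (median -1.13, a tumor signal of 45.6% of that in brain), of 15 glutamate receptor genes 11 and 0 (-1.17), and of 16 genes of GABA reception and synthesis 13 and 0 (-1.29). Syn1, a phosphoprotein of synaptic vesicles, had 10.30, 10.86 and 11.53 in tumor and 12.22, 12.52 and 12.80 in brain (-1.63 ± 0.20, adjusted p = 7.6e-05). Slc17a7, the vesicular glutamate transporter of cortical neurons, was at -1.84, Grm7 at -1.99, Gabbr2, a GABA-B receptor subunit, at -1.73, and Bdnf, a neurotrophin, at -1.53. Sv2b was the synaptic gene on the other side, at 0.21 and not called. No gene of these 3 lists passed the test of the change between MRT and untreated rats.

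The projection neuron lists behaved differently from each other. Of 10 cortical genes 5 were lower and 0 higher (median -1.04), led by Neurod6, a transcription factor of cortical pyramidal cells, with 8.73 to 9.75 in tumor and 10.86 to 11.63 in brain (-2.08 ± 0.10, adjusted p = 2.9e-07). Of 14 striatal genes 0 were lower and 1 was higher, with a median of -0.29. The striatal median varied more between rats than that of any other list, from -1.59 in rat 10 and -1.02 in rat 8 to 0.84 in rat 9. The dopamine receptor Drd1 ranged from 7.24 to 11.88 in tumor and from 8.89 to 11.04 in brain. Tumor and brain overlapped throughout, and the difference was -0.24 ± 0.32 (adjusted p = 0.54). Penk (proenkephalin) was the striatal gene higher in tumor, at 12.37, 12.85 and 13.83 against 10.98, 11.68 and 13.68, with overlapping groups but a higher tumor value in every rat (1.05 ± 0.17, adjusted p = 0.00039, and 0.055 when the pairing was ignored). Without rat 8 or rat 10 it was 0.96 or 0.93, under the 2-fold limit.

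The most negative difference belonged to Ttr, the transthyretin gene, known in brain as a product of choroid plexus. It was at 13.46 to 14.80 in brain, and in tumor at 7.46 to 7.63 in rats 6, 8 and 10 but at 12.70 to 14.32 in rats 7, 9 and 11. The mean difference was -3.41 ± 0.92 (adjusted p = 0.0094), and it was -2.53 with an adjusted p of 0.14 in rats 9, 10 and 11. With low signals read as 58 the difference stayed at -3.41, since these Ttr values lay above that signal. Its adjusted p in that fit was 0.067. The following genes were steadier. Cpne4, a calcium-dependent membrane-binding protein, was at 6.34, 6.79 and 7.58 in tumor and 9.23, 9.84 and 10.33 in brain (-2.93 ± 0.16, adjusted p = 5.7e-07). Ppp3r1, a regulatory subunit of calcineurin, had -2.69, Neurod1, a neurogenic transcription factor, -2.60, and the neuropeptide genes Grp and Nts (neurotensin) -2.35 and -2.32.

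Glial genes were lower to a lesser degree. Of 18 myelin genes 5 were lower and 0 higher (median -0.79, from -1.14 to 0.04 over the rats). In rats 9, 10 and 11 alone the calls of Ugt8, Mal, Fa2h, Opalin and Ermn were lost. Without rat 7, Ugt8 (-0.81), Mal (-0.99) and Fa2h (-0.91) fell under the 2-fold limit. Of 15 astrocyte genes 3 were lower and 0 higher (median -0.69). The glutamate transporter Slc1a2 was lower by its called difference of -1.05, which was -0.99 without rat 7, under the 2-fold limit. Gjb6, a gap junction protein, was at 7.66, 8.81 and 9.11 in tumor and 9.95, 10.04 and 10.91 in brain (-1.58 ± 0.18, adjusted p = 4.5e-05). Gfap, the filament protein of reactive astrocytes, went the other way, with 13.46 to 14.23 in tumor and 13.18 to 13.47 in brain (0.51 ± 0.12, adjusted p = 0.0046), below the 2-fold limit.

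**Figure D2:**
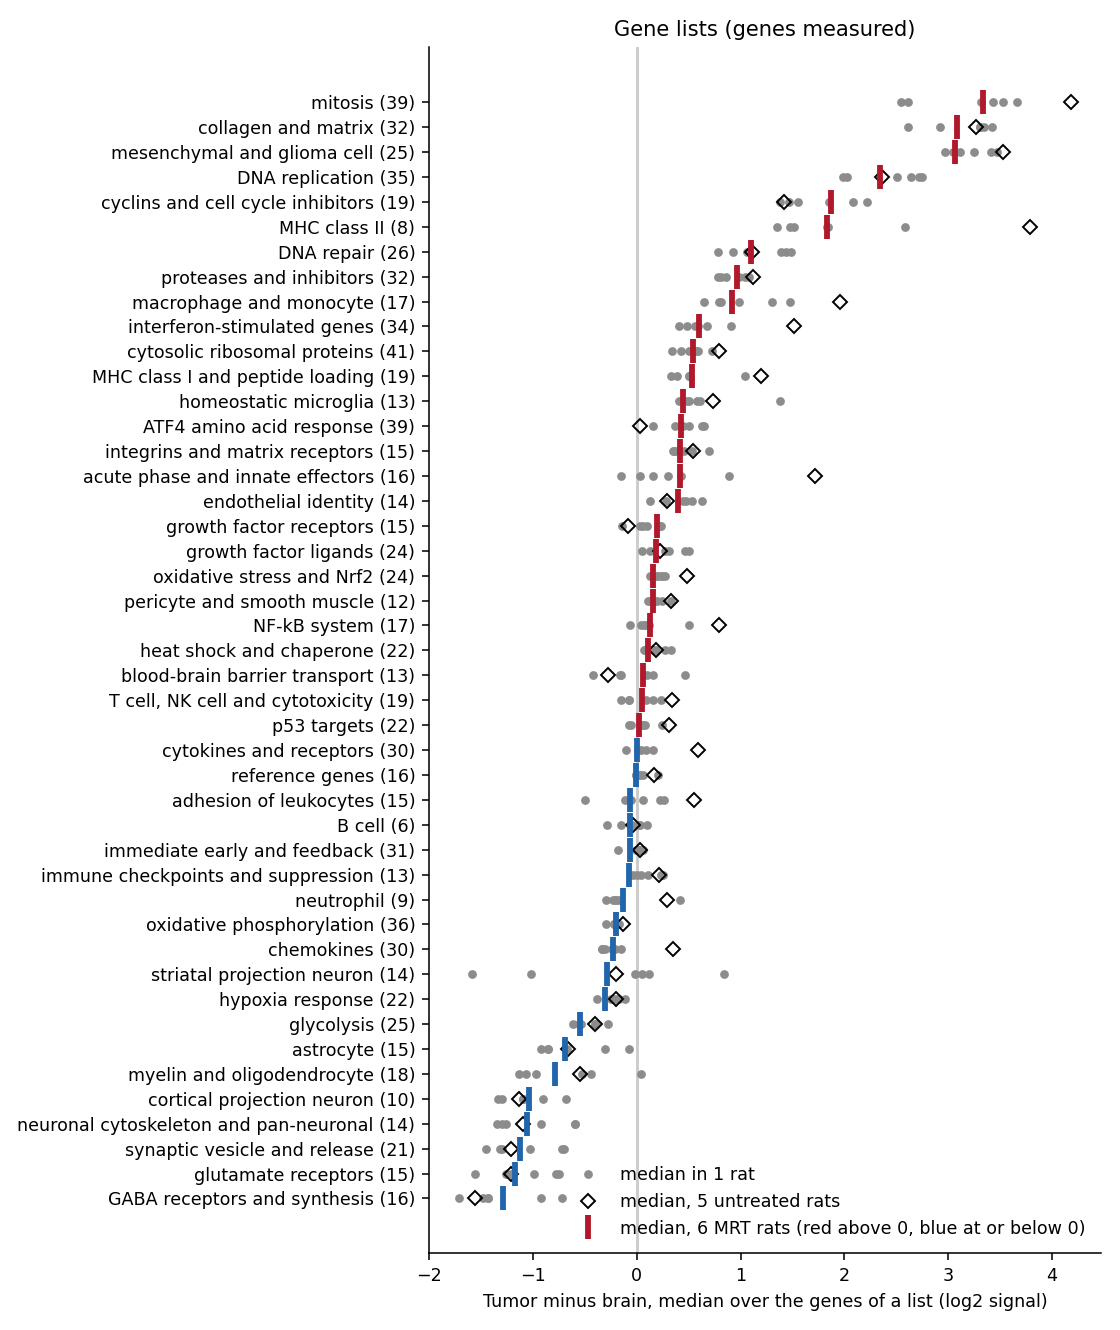
Median difference between tumor and brain over the genes of each of 45 lists, on the log2 scale, with the number of genes measured in brackets. Grey points are single MRT rats, coloured bars all 6 MRT rats and open diamonds the 5 untreated rats. Mitosis (3.34), matrix (3.09) and mesenchymal genes (3.07) lie farthest right and GABA genes (-1.29) farthest left.

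The microglia list was split. Of 13 genes 6 were higher and 0 lower, with a median of 0.44. The 2 tallest were Tmem119, at 11.90, 12.78 and 13.27 in tumor and 6.51, 7.10 and 8.97 in brain (5.37 ± 0.21, adjusted p = 7.1e-08), and Olfml3, a secreted glycoprotein, with 5.17 ± 0.13. Both are microglial markers in normal brain that mesenchymal cells are also known to express. The complement genes C1qa, C1qb and C1qc were higher by 1.71, 1.61 and 1.92. P2ry12, the purinergic receptor that defines resting microglia, was at 5.61 to 6.57 in tumor and 5.43 to 6.48 in brain (0.08 ± 0.22, adjusted p = 0.75), with both means close to the signal of 58, and Cx3cr1, the fractalkine receptor, was at -0.07 ± 0.11 (adjusted p = 0.59).

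Of 17 macrophage and monocyte genes 8 were higher and 0 lower, with a median of 0.92 beside 1.96 in untreated rats. Spp1 (osteopontin), which glioma cells also express, was higher by 5.57, the lectin Lgals3 by 2.40, the Fc receptor gene Fcgr3a by 2.22 and the lysosomal marker Cd68 by 1.64 ± 0.15 (adjusted p = 1.2e-05), with 8.60 to 9.60 in tumor and 7.10 to 7.65 in brain. Cd163 and Ccr2 had means below the signal of 58 in both tissues. Few lymphocyte genes were called. Of 19 T and NK cell genes 1 was higher (Gzma, a granule protease, by 1.86, or 0.88 with low signals read as 58), and of 6 B cell genes 0 were called. Of 9 neutrophil genes 1 was called, Mmp9 at 1.01, which was 0.97 without rat 6 and 0.87 without rat 7.

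Shares of vessel genes called higher were 25% (pericyte and smooth muscle), 21.4% (endothelial) and 7.69% (barrier transport), beside 11.3% of all genes. Those called lower were 0%, 0% and 15.4%, beside 8.50%. In each of the 3 vessel lists 4 genes had an interval wholly between -0.5 and 0.5. Of 12 pericyte and smooth muscle genes 3 were higher, the PDGF receptor Pdgfrb by 1.67, Tagln by 1.30 and the proteoglycan Cspg4 by 1.10 (0.96 without rat 8), and 0 lower. Of 14 endothelial genes 3 were higher, Emcn (endomucin) by 1.39, Ramp2 by 1.38 and Cdh5 (VE-cadherin) by 1.20, and 0 lower. Of 13 blood-brain barrier transport genes 2 were lower, the organic anion transporter Slc22a8 by 1.19 and the thyroid hormone transporter Slco1c1 by 1.17 (differences of -1.19 and -1.17). The drug efflux pump Abcb1a was the 1 higher, and in this case the change with MRT stood out. Its first probeset was at 7.52 to 8.60 in tumor and 5.78 to 7.70 in brain, with rat 7 as the brightest brain (1.80 ± 0.33, adjusted p = 0.0011), while untreated rats had -0.33. The change of 2.12 ± 0.44 (adjusted p = 0.047) was lost when any of 10 of the 11 rats was left out. With the grouping by labelling controls as a covariate its adjusted p was 0.054. Without rat 7 the difference was 2.19 and the adjusted p of the change 5e-04, and the second probeset, with a change of 2.05, did not pass the test (adjusted p = 0.11).

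**Figure D3:**
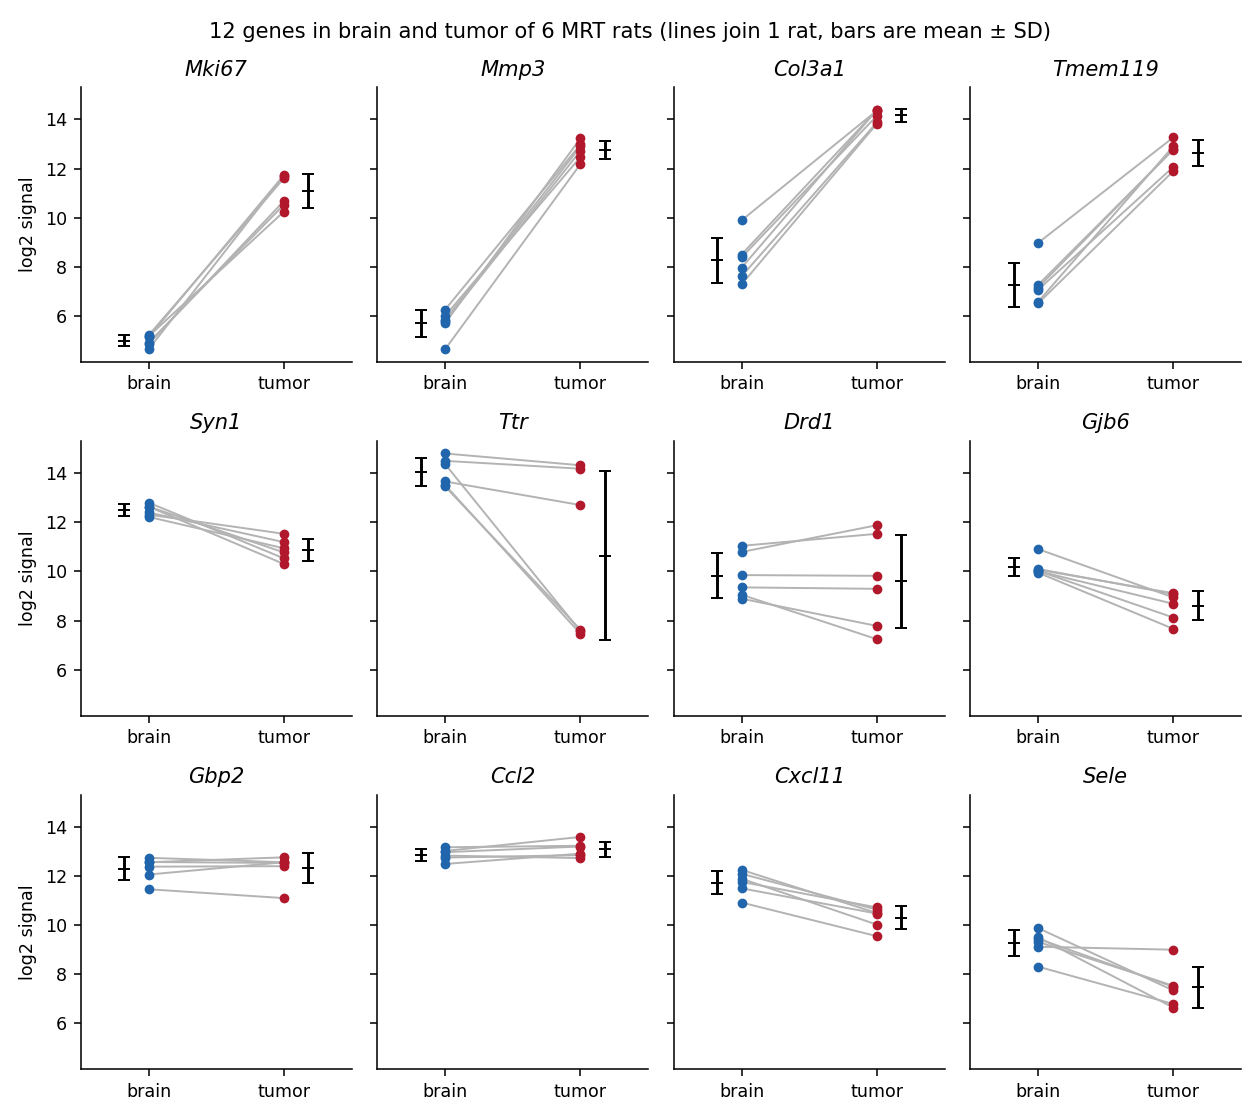
Log2 signal of 12 genes in brain (blue) and tumor (red) of the 6 MRT rats, with lines joining the tissues of 1 rat and black bars giving mean ± SD. Mki67, Mmp3, Col3a1 and Tmem119 lie higher in every tumor, Ttr splits the tumors into 3 low and 3 high, and Gbp2 and Ccl2 overlap between the tissues.

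Among inflammatory genes the difference between tumor and brain was often smaller after MRT than without it. Of 30 chemokine genes 2 were higher in tumor and 5 lower (median -0.23), against a median of 0.35 without irradiation, and 8 passed the test of the change, all of them downward. Ccl2, which attracts monocytes, was at 12.73, 13.06 and 13.59 in tumor and at 12.49, 12.90 and 13.17 in brain. The tissues overlapped (0.21 ± 0.10, adjusted p = 0.095), while untreated tumor and brain had means of 9.97 and 5.33. The change of the difference was -4.42 ± 0.31 (adjusted p = 1.5e-05).

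Of the 3 chemokines of the CXCR3 receptor, which draw T cells, Cxcl11 was called lower in tumor, and Cxcl10 and Cxcl9 (-0.70 ± 0.16, adjusted p = 0.0043) were under the 2-fold limit. Cxcl11 was at 9.55, 10.48 and 10.72 in tumor and 10.92, 11.82 and 12.25 in brain, with no overlap (-1.42 ± 0.13, adjusted p = 1.1e-05). In untreated rats tumor was the higher tissue by 1.86 (change -3.28 ± 0.47, adjusted p = 0.0037, and 0.071 with low signals read as 58). Cxcl10, whose window is printed above, was at 10.56 to 11.18 in tumor and 11.55 to 12.10 in brain (-0.92 ± 0.12, adjusted p = 0.0001, under the 2-fold limit), against 2.93 in untreated rats. Ccl20 (-1.49) and Ccl9 (-1.32) were also lower, as were Ccl27 (-1.28) and Cxcl14 (-1.07), which were lower in untreated rats by similar amounts (-1.36 and -1.26). Ccl7 (1.04) and Cxcl13 (2.23) were higher. Ccl7 fell under the 2-fold limit without rat 11 (0.94) and Cxcl14 without rat 10 (-0.99).

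Of 15 leukocyte adhesion genes 3 were higher in tumor and 1 lower (median -0.07). Spn (CD43), a sialoglycoprotein of leukocytes, was higher by 3.28, and the hyaluronan receptor Cd44 and the integrin ligand Icam2 by 1.22 and 1.25, the latter in 1 of its 2 probesets (the other gave 0.13). The gene lower was E-selectin (Sele), which captures leukocytes on endothelium, at 6.64, 7.42 and 9.00 in tumor and 8.31, 9.38 and 9.88 in brain (-1.80 ± 0.29, adjusted p = 0.00045). Rat 7 gave the highest tumor value, which lay above the brain of rat 9, and without it the difference was -2.13. Ptgs2, the inducible cyclooxygenase, was at 8.97 to 10.20 in tumor and 10.52 to 11.41 in brain (-1.47 ± 0.19), the same direction as in untreated rats (-1.66). Ptges, the next enzyme toward prostaglandin E2, was at -0.81 ± 0.11 after MRT and at 1.73 without (change -2.54 ± 0.21, adjusted p = 4.9e-05). Icam1, a ligand of leukocyte integrins, was at 11.05 to 11.83 in tumor and 11.17 to 12.42 in brain (-0.11 ± 0.13, adjusted p = 0.5). Il1b, an inflammatory cytokine, was at -0.90, and of 30 cytokine and receptor genes 1 was higher, Tnfaip6 by 2.48.

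Interferon-stimulated genes had a tumor excess with a smaller median than in untreated rats. Of 34 genes 9 were higher and 0 lower (median 0.60 beside 1.51), and 9 passed the test of the change, all downward. Gbp2 showed the largest change of any gene with a symbol. It was at 11.10, 12.54 and 12.76 in tumor and 11.46, 12.47 and 12.74 in brain, with rat 7 lowest in both tissues, and the difference was 0.02 ± 0.11 (adjusted p = 0.89) where untreated means were 11.34 and 6.58 (change -4.74 ± 0.19, adjusted p = 2.8e-08). Ifi44 (1.65), Usp18 (1.39) and Ifitm1 (1.30) were the most unequal of the list.

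Most MHC class II genes and part of the class I genes were higher in tumor. Of 8 MHC class II genes 6 were higher and 0 lower, with a median of 1.83 (1.64 without rat 7) beside 3.79 in untreated rats. RT1-Da, a class II alpha chain, was at 11.69 to 12.49 in tumor and 8.41 to 10.75 in brain, where the brain of rat 7 was the 8.41 and the next lowest was 10.20 (1.94 ± 0.25, adjusted p = 0.0001, and 1.63 without rat 7). Untreated rats had 4.34 (change -2.40 ± 0.35, adjusted p = 0.0049). Of 19 MHC class I and peptide-loading genes 7 were higher, 0 lower and 12 not called. Higher were the immunoproteasome subunits Psmb8 (2.25) and Psmb9 (1.64, or 1.33 without rat 7), among others. The class I genes RT1-A2 (-0.03) and RT1-CE3 (0.12) and both probesets of B2m (0.51 and 0.87) were not called. Timp1, an inhibitor of metalloproteases that is also an acute phase gene, went from 5.98 in untreated rats to 1.85 after MRT, and to 1.53 without rat 7 (change -4.13 ± 0.34, adjusted p = 5.1e-05).

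**Figure D4:**
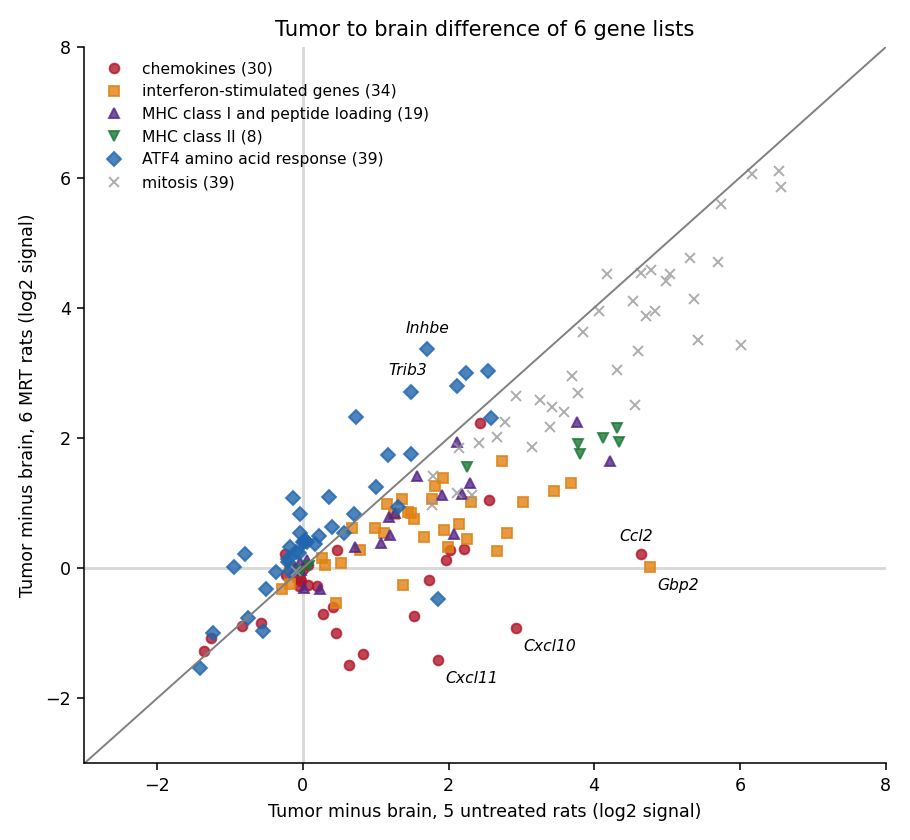
Difference between tumor and brain in the 5 untreated rats (x axis) and the 6 MRT rats (y axis), log2 scale, for the genes of 6 lists with the brightest probeset of each gene. Points under the diagonal, among them Gbp2 (4.77 to 0.02), Ccl2 (4.64 to 0.21) and Cxcl11 (1.86 to -1.42), had a smaller difference or one in favor of brain after MRT.

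Of 22 p53 target genes 3 were higher (13.6%, beside 11.3% of all genes) and 1 lower (4.55%, beside 8.50%). Their median was 0.02 beside 0.31 in untreated rats, and 9 had an interval wholly between -0.5 and 0.5. The change passed the test for 5 of the 22 genes, all downward. Cdkn1a, the p21 inhibitor, was at 12.01, 12.42 and 12.83 in tumor and 12.20, 12.34 and 12.83 in brain (0.04 ± 0.13, adjusted p = 0.82), while untreated tumor and brain had means of 9.72 and 8.30 (change -1.38 ± 0.28, adjusted p = 0.045). Mdm2, the ligase that degrades p53, was at 11.80 to 12.25 in tumor and 10.71 to 11.27 in brain (1.02 ± 0.07, adjusted p = 3e-06), close to the 0.95 of untreated rats. Perp, a membrane protein, was the 1 lower, at -1.32 (-0.71 with low signals read as 58, under the 2-fold limit), and Gadd45a, a stress-induced growth arrest gene, was higher by 1.23.

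The ATF4 list, whose genes answer amino acid shortage and endoplasmic reticulum stress, was the list with the most changes in favor of tumor. Of 39 genes 12 were higher and 1 lower (median 0.43 beside 0.03 in untreated rats), with 6 changes upward and 1 downward. Inhbe was at 9.49, 10.28 and 10.49 in tumor and 6.61, 6.78 and 7.07 in brain (3.36 ± 0.14, adjusted p = 8.4e-08). Untreated rats had 1.71, with means of 8.53 in tumor and 6.82 in brain (change 1.64 ± 0.31, adjusted p = 0.025, lost on leaving out any of 6 of the 11 rats, and 0.13 with low signals read as 58). The Inhbe signals of the irradiated rats all lay above 58, and what raised this adjusted p was not tested.

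Trib3, a pseudokinase that feeds back on this response, was read by 3 probesets, all called higher. The highest and the lowest gave 4.24 ± 0.12 and 2.71 ± 0.16 against 2.06 and 1.48 in untreated rats (changes of 2.18 and 1.23, adjusted p = 8e-04 and 0.014). Nupr1, a stress-induced chromatin protein, was at 2.32 against 0.73 (a change lost on leaving out any of 5 of the 11 rats, and with an adjusted p of 0.11 when low signals were read as 58), and the arginine transporter Slc7a1 at 1.07 against -0.14. Chac1, which degrades glutathione, was at 0.21 ± 0.10 after MRT and -0.79 without. Ddit3 (CHOP), a transcription factor of this response, was higher by 3.03, and its change did not pass the test (adjusted p = 0.8). Atf3 was the 1 gene whose change went down, from 1.85 to -0.48.

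**Figure D5:**
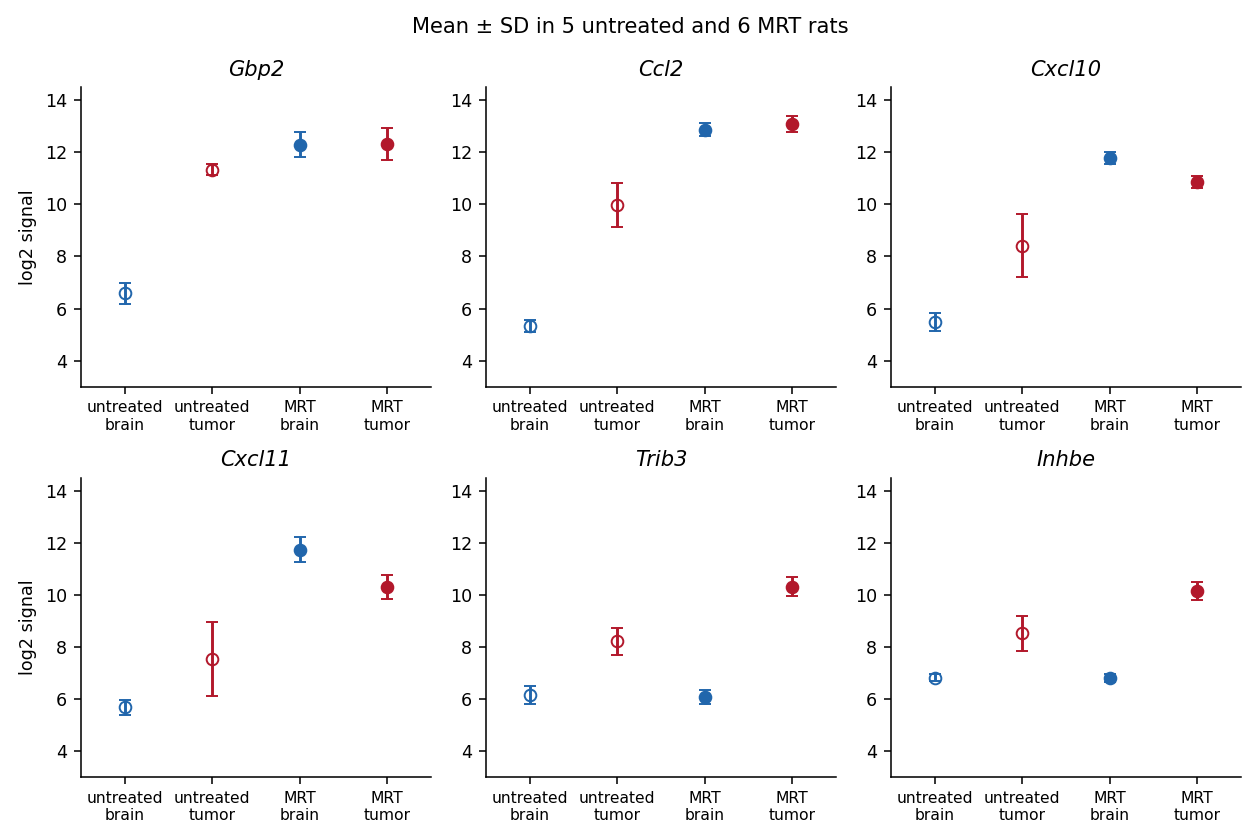
Mean log2 signal ± SD of 6 genes in brain (blue) and tumor (red) of 5 untreated rats (open circles) and 6 MRT rats (filled circles). Mean signals of Gbp2, Ccl2, Cxcl10 and Cxcl11 were near 5 to 7 in untreated brain and above 11 in irradiated brain. For Trib3 and Inhbe the means of the 2 groups of tumors were unlike. Neither tissue was tested by itself between the groups.

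Of 24 growth factor ligand genes 6 were higher and 2 lower (median 0.18), with 2 changes upward, both of ligands of the EGF receptor family. Areg (amphiregulin) was at 7.68, 8.26 and 8.65 in tumor and 4.46, 4.70 and 4.86 in brain (3.48 ± 0.16, adjusted p = 1.9e-07, and 2.32 with low signals read as 58) against 1.69 in untreated rats (change 1.80 ± 0.28, adjusted p = 0.0073). Hbegf, its relative, was at 9.01 to 9.89 in tumor and 7.11 to 7.84 in brain, and its difference went from 0.93 to 1.94 (change 1.01, adjusted p = 0.0052). The other members of that family on the list, Tgfa (-0.85), Egf (0.29) and Ereg (0.02), were not called, and their changes did not pass the test. Klf2, a transcription factor of endothelium and resting lymphocytes, was higher by 2.22 against 0.69. Here untreated brain had a mean of 9.56 and irradiated brain lay between 8.34 and 8.99.

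Immediate early genes went both ways. Of 31 genes 7 were higher and 3 lower (median -0.07). Klf4 (2.71) and the phosphatase gene Dusp6 (2.23) were higher, and the neuronal activity genes Arc (-1.78), Nr4a3 (-1.67) and Nr4a1 (-1.31) were lower. Arc was at 8.29 to 9.58 in tumor and 9.48 to 11.49 in brain, and rat 6 tumor was above rat 7 brain, although each rat had more in brain. Of 22 heat shock genes 5 were higher, led by Hspb1 (2.48), and 1 was lower, Hspa4l at -1.07 (-0.98 without rat 7). Hspb1 had 4.00 in untreated rats, and its change of -1.52 passed the test (adjusted p = 0.0028). Finally, of 24 genes of the oxidative stress response 1 was higher, Gpx1 by 1.12.

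Genes often used as references set the scale of the comparison. Of 16 genes 2 were called, Gusb, a lysosomal enzyme, at 1.96 ± 0.13 and Rplp0, a ribosomal protein, at 1.35. Ppia (0.02), Atp5f1b (-0.06) and Arpc1a (-0.12) were close to equal. With every array centred on Atp5b and Arpc1a (Atp5b is the older name of Atp5f1b) the median of all probesets moved by 0.091. Besides Kif20a and Icam2, some other genes described were called by only part of their probesets. The differences of those probesets ran from -0.08 to 3.89 for Mmp2, from -0.17 to 2.22 for Klf2, from 0.37 to 1.02 for Mdm2, from -0.13 to 1.67 for Pdgfrb, from 0.01 to 1.18 for Slc7a1 and from 0.93 to 1.01 for Mmp9. On the lower side they ran from -1.53 to -0.57 for Bdnf, from -1.07 to -0.21 for Cxcl14, from -1.67 to -0.17 for Nr4a3 and from -1.32 to -0.66 for Perp.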

How the data were processed

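Samples were 6 irradiated and 5 untreated rats, each with a tumor and a contralateral brain array, grouped by their labels. The authors amplified and hybridised the RNA and summarised probe intensities by RMA in Affymetrix Expression Console, which corrects background and equalises the arrays' distributions, and they deposited linear signal intensity values. Both deposited tables held identical values, from 10 to 36564. For array data the number of arrays limits the precision. RMA pulls low signals together and shortens their differences.

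Signals were log2-transformed, 57 control probesets were left out, and 31042 were tested with limma 3.58.1 in R 4.3.3, with rat as a block and Benjamini-Hochberg adjustment. The change between MRT and untreated rats was tested on the 11 within-rat differences, which share no array. The tissues of a rat deviated together (r of residuals 0.246 to 0.649 over the 6 rats). Array sessions are not assigned to samples in the sources used here, so no session block was fitted. Of the probesets 19546 had 1 gene symbol in the annotation, 372 several and 11124 none, and symbols were updated through the RefSeq table (15456 found directly, 2821 by an older name, 1269 unmatched). The brightest probeset stood for a gene in lists and promoter counts.

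Genes to name were drawn by rules, and not every gene that met a rule is named. The rules took the 15 largest differences in each direction seen in all 6 rats, the 10 largest changes in each direction, and the reference genes. Per list they took up to 5 called members in each direction and up to 3 bright uncalled ones with any defining member. They also took members of the damage, inflammation and interferon lists whose interval lay between -0.5 and 0.5. A few members of the lists are not reported here. Other list members named were chosen after their values were seen. Members and lists were chosen with earlier results of these data known. The fits were tested on simulated data. Alternatives changed the pairing, the arrays, the scaling, the treatment of low signals and the unit (probeset or gene). Figures used matplotlib 3.10.9.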

Additional observations from a re-analysis of the deposited data

Results flagged for a closer look

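Among 111 groups of 6 rats tested for a single distant value, 11 had one, where chance gives about 1 in 20. Rat 7 was the distant rat in 8 of them. For gene lists its median difference was 0.42 for neutrophil genes (other rats -0.30 to -0.16), 0.50 for the NF-kB system (-0.07 to 0.12), 1.04 for MHC class I and peptide loading (0.33 to 0.51) and 0.20 for reference genes (-0.01 to 0.06). For single genes it was 3.42 for Timp1 (1.21 to 1.83), 3.21 for Psmb9 (1.02 to 1.59), 0.59 for B2m (0.47 to 0.51) and 4.47 for Col3a1 (5.77 to 6.55), the last being low. Rat 11 was high for homeostatic microglia genes at 1.38 (0.41 to 0.61) and low for Ect2 at 5.06 (5.76 to 6.10), and rat 8 was low for immediate early genes at -0.18 (-0.01 to 0.06).

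The difference between tumor and brain was itself different between MRT and untreated rats, by limma's test on within-rat differences, for the following 20 genes, which are the 10 largest in each direction with a symbol. It was larger after MRT by 2.18 for Trib3, 2.12 for Abcb1a, 1.80 for Areg, 1.64 for Inhbe, 1.59 for Nupr1, 1.53 for Klf2, 1.21 for Slc7a1, 1.03 for Amotl2, 1.01 for Hbegf and 1.00 for Chac1. It was smaller by these amounts: Gbp2 -4.74, Ccl2 -4.42, Timp1 -4.13, Cxcl10 -3.85, Cxcl11 -3.28, Tubb6 -2.76, Maff -2.72, Cks2 -2.58, Psmb9 -2.58 and Ptges -2.54. Tubb6, a tubulin, went from 5.31 in untreated rats to 2.55 after MRT (a second probeset gave 0.18), and Maff, a small transcription factor, from 2.83 to 0.12.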

How the results depend on the processing

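Without the pairing (no replicate block) 2567 probesets were higher and 2459 lower in tumor, 16252 differed in all, and 145 passed the test of the change; with rat as a random block these were 2574, 2479, 18581 and 216. Among named genes the missing pairing cost the calls of Penk (adjusted p = 0.055) and Mx1 (0.077). No called gene among those named turned its direction under any alternative. The medians of 9 lists, all of them between -0.08 and 0.13, changed sign under at least 1 alternative, up to 0.96 for immune checkpoint genes with dim probesets left out and -0.25 for blood-brain barrier genes in rats 6, 7 and 8 alone. Leaving out 1 rat at a time gave 2487 to 2740 higher, 2048 to 2827 lower, 16457 to 17128 with any difference, 6522 to 7278 alike and 138 to 292 changes, the last without rat 7. Counting 1 value per gene gave 1551 higher and 1165 lower with the brightest probeset (9220 with any difference) and 1401 and 1029 with the mean of a gene's probesets (9157). The treat test gave 1363 and 310. Reading signals below 58 as 58 left 121 changes, and rats 6, 7 and 8 alone left 3758 probesets alike, against 5570 in rats 9, 10 and 11 alone. The cause was not tested. Of 209 called named probesets 34 lost a call under at least 1 alternative, 12 of them by the adjusted p. Of 45 list medians 14 moved by more than the spread between rats. Centring on Atp5b and Arpc1a raised the share of higher calls from 50.9% to 59.9%, and cyclic loess to 57.7%. Signals near background limit the folds of the tallest tumor genes, which are shorter once low signals are read as 58.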

Other observations

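Shares of metabolic genes called are to be read beside the 11.3% of all genes higher in irradiated tumor and the 8.50% lower. Higher and lower shares were 8% and 4% for glycolysis, 4.55% and 4.55% for hypoxia-responsive genes and 7.32% and 0% for ribosomal protein genes. Each of these rests on few genes. Of 36 genes of oxidative phosphorylation 0 were called, with a median difference of -0.20, and 23 had a 95% interval wholly between -0.5 and 0.5. Of 25 glycolysis genes 2 were higher and 1 lower (median -0.55, between -0.62 and -0.28 in every rat), 6 had an interval in that range, and of 22 hypoxia-responsive genes 1 was higher and 1 lower (median -0.31). Of 41 cytosolic ribosomal protein genes 3 were higher and 0 lower, with a median of 0.54 beside 0.79 in untreated rats. Of 15 integrin and matrix receptor genes 6 were higher and 0 lower (median 0.42), and of 15 growth factor receptor genes 4 were higher, among them Pdgfra, the PDGF receptor of glial precursors and mesenchymal cells, by 2.32. Igf2, a fetal growth factor also made by meninges and choroid plexus, was lower in tumor by its brightest probeset (-1.68), while its 3 probesets reached -0.02.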
